A study of Mus musculus with 6 samples.

Results

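Interferon-stimulated genes are the genes that cells switch on when interferon binds its receptor, and 32 of them, named as a set, are described here in the epidermis of healing blisters. All 32 symbols were found among the 24014 genes of the count tables, and 31 of them passed the filter on low counts, as did 14028 genes in all. The exception was Ifi44, with 3, 13 and 6 counts in blister 1, 2 and 3, against 2, 3 and 7 counts in control 1, 2 and 3. The study sequenced RNA from epidermal cells of wild-type mouse back skin at postnatal day 2. In 3 libraries, called blister 1, 2 and 3, the skin was healing after a suction blister, a lifting of epidermis from dermis by negative pressure (523.4 ± 1.3 mmHg through a syringe 4 mm wide). The other 3 libraries, control 1, 2 and 3, came from control skin of the same age. All groups were wild type, and both kinds of skin were treated with 0.25% trypsin and passed through a 70 µm filter. The labels do not say how many animals or blisters went into a library, nor how long after blistering the skin was taken, so the p-values below speak only of how far these libraries differ, some of which may be technical.

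Type I and type III interferons act through receptors whose kinases, Jak1 and Tyk2, phosphorylate STAT factors such as Stat2. With Irf9 these form a complex, ISGF3, that binds the interferon-stimulated response element (ISRE) in the promoters of its target genes. Type II interferon, encoded by Ifng, acts mainly through STAT pairs bound to another element, the gamma-activated site (GAS). Keratinocytes carry these receptors, and in skin the response is known from viral infection, psoriasis, lupus and wounding. Many of these genes have a low level without added interferon, through ISGF3-like complexes or through Irf1.

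The libraries held 7600567 to 15912863 counts, and the members together took 3300 to 6267 counts of each, so many members rest on few counts. Levels are given as CPM, read counts divided by the TMM-scaled library size, and fold changes as log2 of blister over control with the standard error (SE). Keratinocyte markers were abundant, as the epidermal label says: the summed level of 8 of them, among them Krt14 and Krt10, was 105232 to 194478 CPM in blister libraries and 63969 to 89346 CPM in control libraries. Single markers differed: Krt5, Krt14, Cdh1 and Dsp were higher in every blister library, Krt1, Krt10 and Trp63 overlapped, and Krt15 was lower in every blister library. Libraries differed in other ways as well. The summed level of 11 neutrophil markers was 70.6 to 246 CPM in blister libraries and 3.22 to 6.43 CPM in control libraries. That of 10 dermal fibroblast markers was 286 to 986 CPM in blister libraries, against 768 and 1025 CPM in control 1 and 2 and 6305 CPM in control 3. In addition, Xist, which is transcribed in female cells, was high in blister 1, blister 2 and control 1 (838 to 1409 CPM) and low in the other 3 libraries (0.512 to 16.9 CPM). Ddx3y, a Y-linked gene, ran the other way. It was at 0.275 to 1.3 CPM in the libraries high in Xist and 40.2 to 62 CPM in those low in it.

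Of the 31 tested members, 4 rose in healing blisters and 0 fell at an adjusted p under 0.05 (edgeR quasi-likelihood test, Benjamini-Hochberg adjustment over 14028 genes). They were Trim25, a ubiquitin ligase that activates the RNA sensor RIG-I, Oas3, a synthetase of the antiviral messenger 2-5A, Irf9, the DNA-binding subunit of ISGF3, and Isg15, a ubiquitin-like protein. A share of 12.9% of the tested members rose, and over all genes tested 9.74% rose and 11.6% fell, so the members' share lies near the background. Members with an unadjusted p under 0.05 numbered 12, all of them higher in blister, which is 38.7% of those tested. Over all genes 19% had such a p and were higher in blister, 20% had one and were lower, and the 2 directions make up 39.0%. DESeq2 called 9 members higher (29.0%), adding Oas1a, Oas2, Oasl2, Ifi35 and Rtp4, and 0 lower, and over all genes it called 13.9% higher and 14.4% lower. The median log2 fold change was 0.33 over the tested members and 0.00 over all genes, and 21 members had positive and 10 had negative values. These shares and medians are descriptions of the list and no test was made of it.

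For 12 members every blister library was above every control library, 38.7% of those tested, against 21.4% of all genes. For 3 members every blister library was below every control library, 9.68% of those tested, against 23.2% of all genes. The 12 were Oas1a, Oas2, Oas3, Oasl2, Isg15, Usp18, Trim25, Irf1, Irf9, Rsad2, Ifi35 and Rtp4, and the 3 were Ifit2, Irf7 and Tap1. Blister 2 was the library with the highest value for 14 of the 31 tested members, and control 1 the one with the lowest value for 16. Blister 2 also had the highest sum of neutrophil markers and the fewest counts, and the part of either in these ranks was not tested. In bulk RNA such as this, a difference in the number of cells of a type and one in RNA per cell cannot be told apart.

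**Figure D1:**
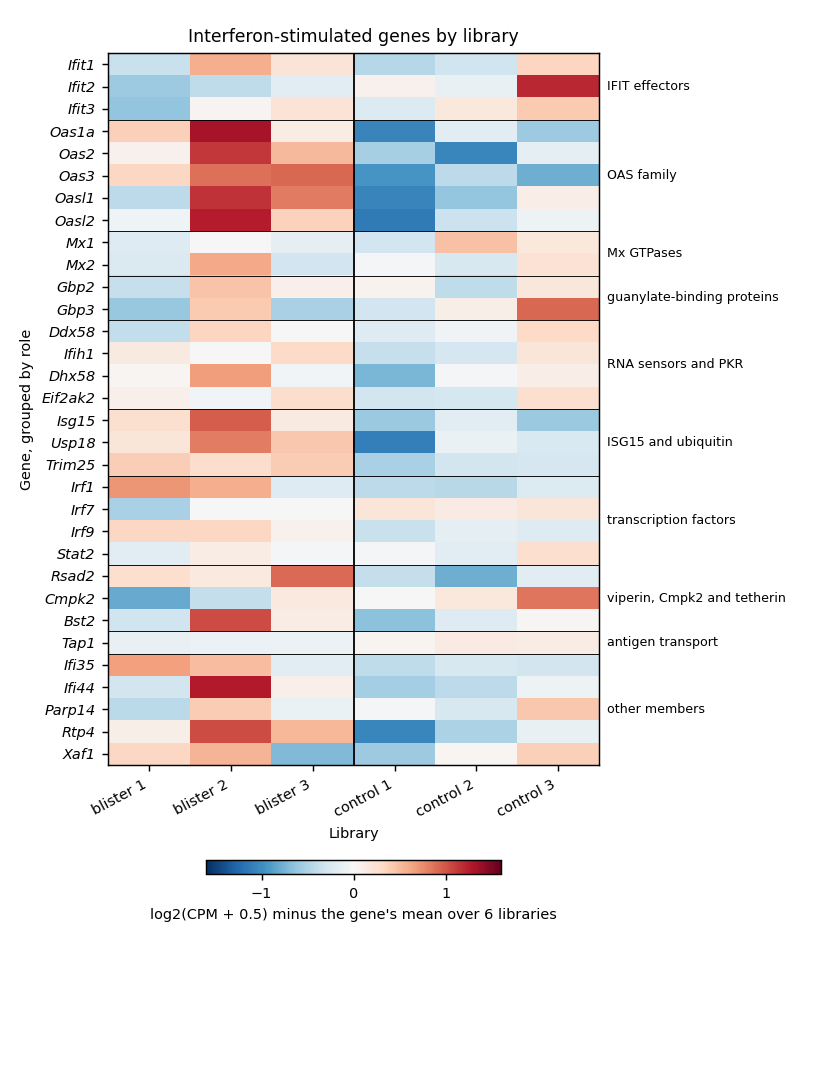
Level of each of the 32 interferon-stimulated genes (rows, grouped by role) in each library (columns), as log2(CPM + 0.5) minus the gene's mean over the 6 libraries. Blister 2 is the highest library for each OAS gene but Oas3, while Ifit2, Gbp3 and Cmpk2 are darkest red in control 3.

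**Figure D2:**
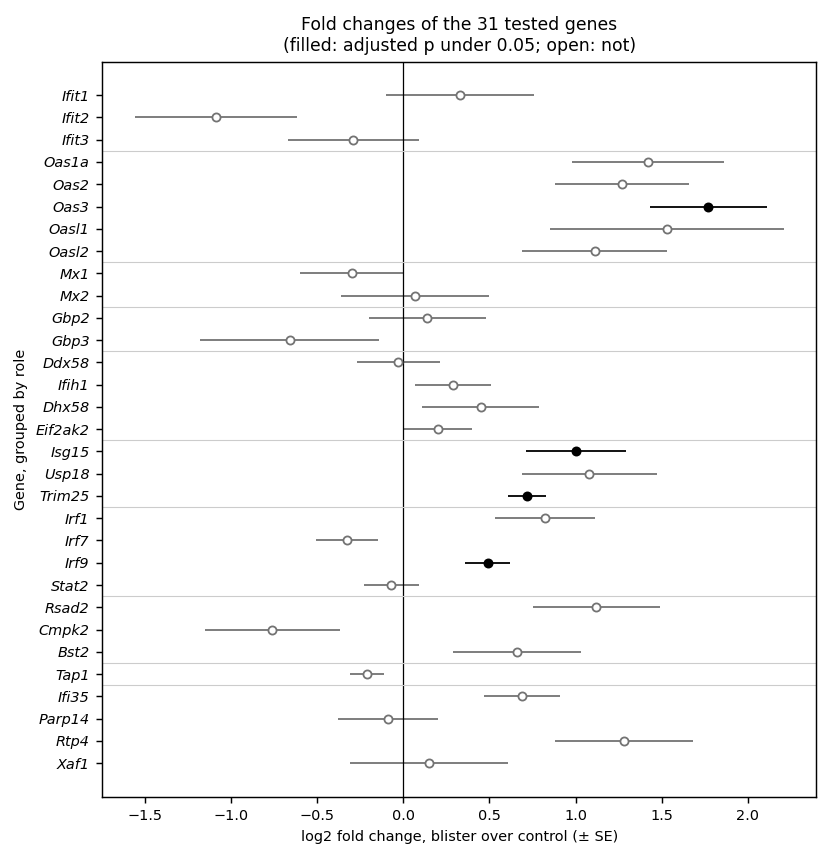
Log2 fold change of blister over control with its SE for the 31 tested genes, grouped by role, where filled points passed an adjusted p of 0.05. Oas3 has the highest value at 1.77 and Ifit2 the lowest at -1.09.

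The promoters of 4 members are printed because they hold the letters that ISGF3 and other IRF factors bind: 3 of them belong to genes that rose, and that of Ifit1 to a gene that did not pass the test. Each runs 5′ to 3′ on the gene's own strand from 250 bases before to 50 bases after the RefSeq start (GRCm38.p6), and capitals mark the ISRE core, GAAANNGAA or its reverse complement TTCNNTTTC, where overlapping matches run together.
Isg15, chr4:156200769-156201068, minus strand: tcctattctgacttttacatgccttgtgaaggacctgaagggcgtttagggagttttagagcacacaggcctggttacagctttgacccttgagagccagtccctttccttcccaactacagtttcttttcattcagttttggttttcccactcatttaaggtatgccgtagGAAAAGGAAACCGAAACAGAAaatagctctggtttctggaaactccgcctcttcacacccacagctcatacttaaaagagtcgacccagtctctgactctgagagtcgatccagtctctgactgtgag
Oas3, chr5:120777610-120777909, minus strand: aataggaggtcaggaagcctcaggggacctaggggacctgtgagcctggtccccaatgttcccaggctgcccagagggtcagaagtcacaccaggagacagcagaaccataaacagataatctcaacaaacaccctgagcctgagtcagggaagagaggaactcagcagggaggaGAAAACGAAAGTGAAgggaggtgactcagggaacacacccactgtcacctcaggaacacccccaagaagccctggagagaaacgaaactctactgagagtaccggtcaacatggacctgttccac
Trim25, chr11:88999153-88999452, plus strand: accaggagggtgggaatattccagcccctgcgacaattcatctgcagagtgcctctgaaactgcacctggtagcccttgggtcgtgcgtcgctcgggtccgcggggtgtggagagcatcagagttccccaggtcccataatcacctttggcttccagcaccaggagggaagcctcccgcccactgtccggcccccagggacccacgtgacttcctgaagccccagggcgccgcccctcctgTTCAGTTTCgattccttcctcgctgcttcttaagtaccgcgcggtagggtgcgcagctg
Ifit1, chr19:34640639-34640938, plus strand: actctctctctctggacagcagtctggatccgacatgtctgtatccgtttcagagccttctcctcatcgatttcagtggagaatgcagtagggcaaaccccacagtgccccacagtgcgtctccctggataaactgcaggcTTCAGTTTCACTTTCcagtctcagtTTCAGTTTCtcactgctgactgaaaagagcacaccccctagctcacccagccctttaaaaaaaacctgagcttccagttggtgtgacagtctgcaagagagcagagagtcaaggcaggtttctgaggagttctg

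The core starts 78, 72 and 66 bases before the start of Isg15, 75 and 69 bases before that of Oas3, 9 bases before that of Trim25, and 109, 103 and 84 bases before that of Ifit1. RefSeq windows were found for 25 of the 32 members, and none for Oas2, Mx1, Mx2, Dhx58, Usp18, Parp14 and Rtp4. The core was present on either strand in 15 of these 25 members (60%), against 9.76% of 27025 genes with windows of the same length. The median log2 fold change was 0.31 over the 14 tested with it, of which 3 rose, and 0.32 over the 10 without it, of which 1, Irf9, rose.

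The letters of a GAS, TTCNNNGAA, which read the same on both strands, were found in 6 of the 25 members (24%), against 9.55% of genes. The promoter of Irf1, a gene known as a target of STAT factors, is shown for its match, in capitals, which starts 90 bases before the gene.
Irf1, chr11:53769764-53770063, plus strand: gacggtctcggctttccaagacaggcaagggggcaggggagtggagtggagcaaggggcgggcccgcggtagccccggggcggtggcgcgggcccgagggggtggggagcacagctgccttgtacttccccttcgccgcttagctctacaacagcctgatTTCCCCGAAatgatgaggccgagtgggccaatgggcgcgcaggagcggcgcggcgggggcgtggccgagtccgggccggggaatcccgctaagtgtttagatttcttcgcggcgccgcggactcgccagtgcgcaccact

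Of the 4 transcription factors 1 rose, Irf9. That gene stood at 49.0, 48.9 and 40.8 CPM in blister 1, 2 and 3, against 30.2, 34.7 and 33.7 CPM in control 1, 2 and 3. The groups lay apart, with blister 3 nearest to the controls, and the log2 fold change was 0.49 ± 0.13 (SE), with an edgeR adjusted p of 0.0331. It passed in 1 of the 6 edgeR fits that omit a library, the one without blister 3 (adjusted p = 0.0158), and had values of 0.0634 to 0.132 in the others. With scaling by library size alone it did not pass (log2 fold change 0.23, adjusted p = 0.208, edgeR). Stat2, the partner of Irf9 in ISGF3, was at 30.0 ± 3.06 CPM in blister and 31.4 ± 4.98 CPM in control libraries (SD, n = 3 each), a log2 fold change of -0.07 ± 0.16 (SE). Irf1, a factor that responds to interferon gamma and to other cytokines, was at 10.8, 9.91 and 5.52 CPM in blister 1, 2 and 3, against 4.68, 4.62 and 5.46 CPM in control 1, 2 and 3. Its value in blister 3 was next to that of control 3, and its adjusted p was 0.0789 (edgeR). Irf7, which amplifies type I interferon production, was at 12.5, 18.2 and 18.3 CPM in blister 1, 2 and 3, against 20.9, 19.9 and 20.8 CPM in control 1, 2 and 3. It was lower in each blister library than in any control, most of all in blister 1, without passing the test (log2 fold change -0.33 ± 0.18 (SE), adjusted p = 0.211, edgeR).

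In the ISG15 and ubiquitin class all 3 members were higher in every blister library than in any control, as were 21.4% of all genes. Trim25 was at 72.7, 67.7 and 73.6 CPM in blister 1, 2 and 3, against 38.5, 45.0 and 46.1 CPM in control 1, 2 and 3. Its blister libraries were close to each other, and it had the smallest p of all members (log2 fold change 0.72 ± 0.11 (SE), adjusted p = 0.00974, edgeR). Trim25 passed whichever library was omitted (adjusted p 0.0109 to 0.0483). Isg15, which is joined to proteins as a tag and is also secreted, was at 8.99, 15 and 8.32 CPM in blister 1, 2 and 3, against 4.76, 6.51 and 4.78 CPM in control 1, 2 and 3. Blister 2 was highest for it, and the log2 fold change was 1.0 ± 0.29 (SE, adjusted p = 0.0467, edgeR). This call too was kept in 1 of 6 edgeR fits, without blister 3 (adjusted p = 0.034), and the others gave 0.0714 to 0.144. Scaling by library size alone gave 0.76 with an adjusted p of 0.107 (edgeR). Usp18, the protease that removes Isg15 and dampens receptor signalling, was at 2.94, 4.82 and 3.57 CPM in blister 1, 2 and 3, against 0.921, 2.31 and 2.05 CPM in control 1, 2 and 3. The lowest library was control 1, and the test was not passed (log2 fold change 1.08 ± 0.39 (SE), adjusted p = 0.0867, edgeR).

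The OAS family makes 2-5A, the activator of RNase L, although Oasl1 lacks that activity, and its median log2 fold change of 1.42 was the highest of the role classes. All 5 members had positive log2 fold changes, between 1.11 and 1.77, and 1 of 5 passed the test. Among OAS genes outside the members, Oas1b and Oas1c overlapped between the groups. Their log2 fold changes were 0.15 (adjusted p = 0.765, edgeR) and 0.68 (adjusted p = 0.192, edgeR). Oas3 was at 2.94, 4.54 and 4.67 CPM in blister 1, 2 and 3, against 0.921, 1.54 and 1.08 CPM in control 1, 2 and 3. These values stand on 32, 33 and 55 counts in the blister group, against 12, 22 and 19 in the control group. The log2 fold change was 1.77 ± 0.34 (SE, adjusted p = 0.015, edgeR), and the gene passed in 5 of 6 edgeR fits that omit a library, missing without control 1 (adjusted p = 0.0635). Oas1a was at 4.59, 9.22 and 3.74 CPM in blister 1, 2 and 3, against 1.38, 2.94 and 2.10 CPM in control 1, 2 and 3. Blister 2 was the highest and blister 3 lay next to control 2, and the adjusted p was 0.0544 (edgeR). Reads of Oas1a may be shared with its near-identical neighbours such as Oas1g, which was at 2.09 ± 0.811 CPM in blister and 0.923 ± 0.361 CPM in control libraries (SD, n = 3 each; adjusted p = 0.105, edgeR).

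Oas2 was at 4.68, 10.3 and 6.54 CPM in blister 1, 2 and 3, against 2.92, 1.89 and 3.98 CPM in control 1, 2 and 3 (log2 fold change 1.27 ± 0.39 (SE), adjusted p = 0.0552, edgeR). Oasl2 was at 9.36, 24.2 and 12.9 CPM in blister 1, 2 and 3, against 4.22, 7.70 and 9.33 CPM in control 1, 2 and 3. Blister 1 and control 3 were almost level for Oasl2, and it did not pass (log2 fold change 1.11 ± 0.42 (SE), adjusted p = 0.0914, edgeR). Oasl1 overlapped between the groups, at 0.642, 2.89 and 2.21 CPM in blister 1, 2 and 3 and 0.230, 0.490 and 1.14 CPM in control 1, 2 and 3 (adjusted p = 0.141, edgeR). The summed level of the 5 genes was 22.2, 51.2 and 30.1 CPM in blister 1, 2 and 3, against 9.67, 14.6 and 17.6 CPM in control 1, 2 and 3. The neutrophil marker sum was 144, 246 and 70.6 CPM in blister 1, 2 and 3, against 5.29, 3.22 and 6.43 CPM in control 1, 2 and 3. Blister 2 was highest among blister libraries, and control 3 among controls, in both sums. The other ranks differed: blister 1 was below blister 3 and control 1 below control 2 in the OAS sum, but above them in the neutrophil sum. The part of neutrophils in the OAS values was not tested.

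The IFIT genes, of which Ifit1 encodes a protein that holds foreign RNA by its unmodified end, had 0 of 3 members past the test. Ifit2 was at 1.28, 1.51 and 1.87 CPM in blister 1, 2 and 3, against 2.30, 1.96 and 5.63 CPM in control 1, 2 and 3. It was highest in control 3, the library with the highest sum of dermal fibroblast markers, and the log2 fold change of -1.09 ± 0.47 (SE, adjusted p = 0.129, edgeR) became -0.44 without that library. Ifit1 was at 2.10 ± 0.803 CPM in blister and 1.62 ± 0.669 CPM in control libraries, and Ifit3 at 1.98 ± 0.704 CPM in blister and 2.41 ± 0.626 CPM in control libraries (SD, n = 3 each). Ifit3 has a near-identical copy, Ifit3b, for which the tables have no row, so its reads may include both. The summed level of the 3 genes was 3.76, 6.61 and 6.54 CPM in blister 1, 2 and 3, against 5.22, 5.74 and 11 CPM in control 1, 2 and 3, so the groups overlapped. Whether the OAS and IFIT classes differ in response was not tested.

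**Figure D3:**
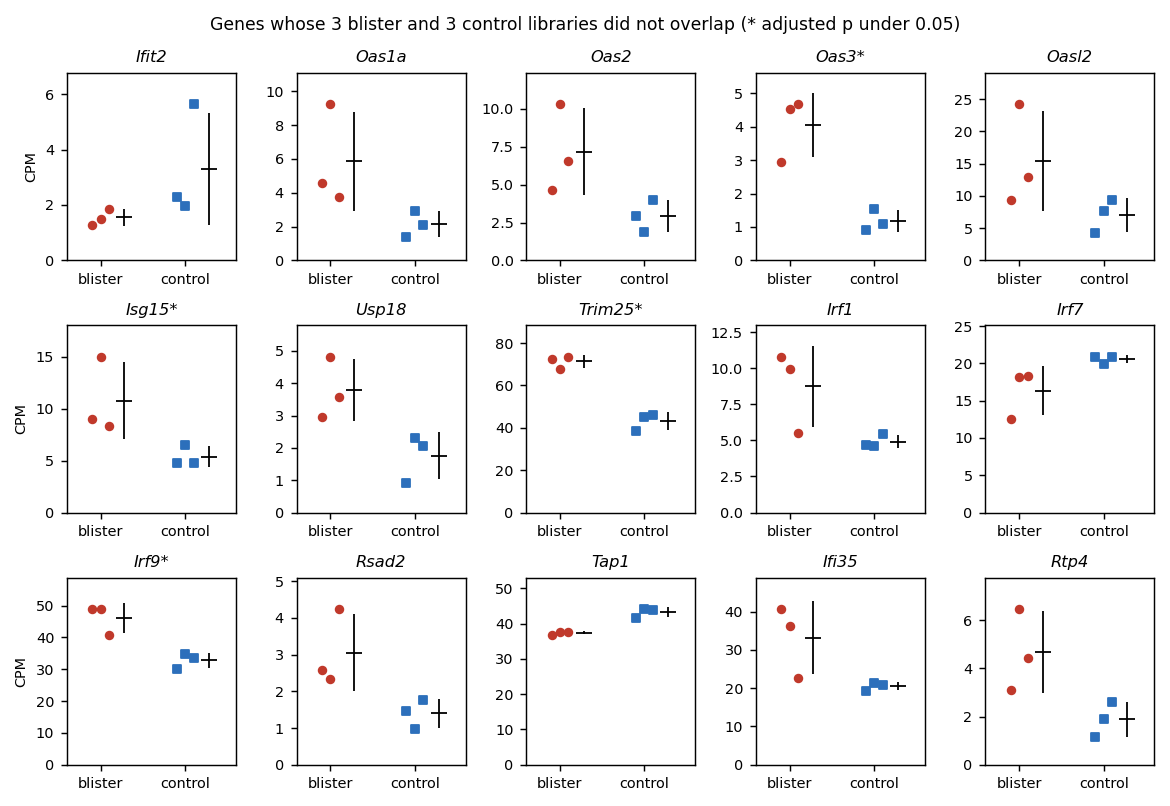
CPM in each library for the 15 genes whose groups did not overlap, with blister libraries as circles, control libraries as squares, and the mean ± SD as bars beside them. Trim25 and Oas3 show wide gaps between the groups, while for Irf1, Ifi35 and Oasl2 1 blister library lies next to the controls.

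Of viperin, its genomic neighbour and tetherin 0 of 3 passed. Rsad2, which encodes viperin, an enzyme that makes a chain-terminating nucleotide, was at 2.57, 2.34 and 4.25 CPM in blister 1, 2 and 3, against 1.46, 0.980 and 1.76 CPM in control 1, 2 and 3 (log2 fold change 1.12 ± 0.37 (SE), adjusted p = 0.0647, edgeR). Cmpk2, a mitochondrial kinase that supplies nucleotides to viperin and is encoded beside it, was at 2.98 ± 1.17 CPM in blister and 5.07 ± 1.84 CPM in control libraries (SD, n = 3 each), highest in control 3 (7.17 CPM) and with a log2 fold change of -0.76 ± 0.39 (SE). Bst2, or tetherin, which holds budding virus at the cell surface, was at 9.09, 24.2 and 12.5 CPM in blister 1, 2 and 3, against 7.13, 9.87 and 11.7 CPM in control 1, 2 and 3, so the groups overlapped and blister 2 stood apart. Its log2 fold change was 0.66 ± 0.37 (SE), and 0.19 without blister 2.

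The cytoplasmic RNA sensors and the kinase PKR had 0 of 4 members past the test and log2 fold changes between -0.03 and 0.45. Eif2ak2, which encodes PKR, a kinase that halts translation when it meets double-stranded RNA, was at 19.9, 18.3 and 22.9 CPM in blister 1, 2 and 3, against 15.3, 15.4 and 22.6 CPM in control 1, 2 and 3. The groups overlapped through control 3. Ddx58, which encodes RIG-I, was at 16.8 ± 4.39 CPM in blister and 17.1 ± 3.39 CPM in control libraries, Ifih1, for the sensor MDA5, at 10.3 ± 1.12 and 8.42 ± 1.94 CPM in blister and control, and Dhx58, for their regulator LGP2, at 5.66 ± 1.78 and 4.10 ± 1.31 CPM in blister and control (SD, n = 3 each). A miss of the threshold does not show that they were equal.

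The GTPase classes were low and overlapped in every case. Mx1, whose product blocks influenza-like viruses in the nucleus, was at 2.66, 3.17 and 2.80 CPM in blister 1, 2 and 3, against 2.45, 4.55 and 3.58 CPM in control 1, 2 and 3 (log2 fold change -0.30 ± 0.30 (SE)). Mx2 averaged 1.38 ± 0.712 CPM in blister and 1.27 ± 0.308 CPM in control libraries (SD, n = 3 each). Gbp2, a guanylate-binding protein that attacks vacuoles with bacteria or parasites, was at 2.11, 4.13 and 3.06 CPM in blister 1, 2 and 3, against 2.99, 2.03 and 3.30 CPM in control 1, 2 and 3. Gbp3 was at 1.68 ± 0.930 CPM in blister and 2.55 ± 1.38 CPM in control libraries (SD, n = 3 each), with the highest value in control 3 (4.10 CPM).

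Tap1, a chain of the pump that loads peptides for MHC class I, was lower in every blister library by a small amount, at 36.9, 37.7 and 37.5 CPM in blister 1, 2 and 3, against 41.6, 44.2 and 43.8 CPM in control 1, 2 and 3. The log2 fold change was -0.21 ± 0.10 (SE, adjusted p = 0.163, edgeR), and -0.46 with an adjusted p of 0.0307 when scaled by library size alone. Among the rest, Ifi35, a leucine zipper protein released as a danger signal, was at 40.7, 36.3 and 22.6 CPM in blister 1, 2 and 3, against 19.3, 21.4 and 20.9 CPM in control 1, 2 and 3. Blister 3 lay next to the controls for it, and it did not pass the test (adjusted p = 0.06, edgeR), but passed without blister 3 (adjusted p = 0.00649, edgeR). Rtp4, a receptor transport protein that limits flaviviruses, was at 3.12, 6.47 and 4.42 CPM in blister 1, 2 and 3, against 1.15, 1.89 and 2.62 CPM in control 1, 2 and 3 (log2 fold change 1.28 ± 0.40 (SE), adjusted p = 0.0587, edgeR). Parp14, an ADP-ribosyltransferase, and Xaf1, a partner of an apoptosis inhibitor, had log2 fold changes of -0.09 ± 0.29 and 0.15 ± 0.46 (SE).

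Upstream of these genes, the interferon genes themselves gave next to no reads. Among 17 ligand genes 11 had no count in any library, among them Ifnb1 and Ifna4, and 0 were tested. A count of 0 allows up to 3 counts, which is 0.171 to 0.413 CPM depending on the library, and such limits cover counting error only. Ifnk, the interferon made by keratinocytes, had 3, 3 and 2 counts in blister 1, 2 and 3, against 0, 0 and 1 counts in control 1, 2 and 3. With counts pooled over libraries and no TMM scaling, the ratio per total count was 9.99, and the ratio of mean CPM was 15.1. A 95% exact binomial interval for the pooled ratio, from 1.34 to 443, covers counting error in these libraries only. It leaves out the spread between libraries, was computed for Ifnk alone of the 17 ligand genes, and is not a test of the groups. Ifng had 2, 0 and 0 counts in blister 1, 2 and 3, against 1, 0 and 1 counts in control 1, 2 and 3.

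The receptor genes were measured in all libraries, and of the 9 tested genes for receptors and kinases 1 rose and 0 fell. This is near the shares over all genes, of which 9.74% rose and 11.6% fell. The gene that rose was Jak1. Jak1, the kinase shared by all interferon receptors and by many cytokine receptors, was at 306, 217 and 291 CPM in blister 1, 2 and 3, against 167, 175 and 183 CPM in control 1, 2 and 3 (log2 fold change 0.63 ± 0.15 (SE), adjusted p = 0.0281, edgeR). Ifnar1, a chain of the type I receptor, was at 51.2, 63.5 and 58.7 CPM in blister 1, 2 and 3, against 67.7, 64.8 and 78.4 CPM in control 1, 2 and 3, which did not pass (adjusted p = 0.146, edgeR). Among 5 further STAT and IRF genes 1 rose and 0 fell. Stat3, which serves interleukin 6-type cytokines, was at 332 ± 42.8 CPM in blister and 226 ± 17.6 CPM in control libraries (SD, n = 3 each; adjusted p = 0.0328, edgeR).

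Genes that restrain the pathway or remove its triggers included 3 that rose and 0 that fell of 7 tested. Over all genes tested 9.74% rose and 11.6% fell, and a list this short was not tested against that share. Socs3, an inhibitor of JAK kinases induced by Stat3, was at 126, 80.5 and 44.2 CPM in blister 1, 2 and 3, against 28.2, 33.0 and 31.3 CPM in control 1, 2 and 3 (log2 fold change 1.44 ± 0.34 (SE), adjusted p = 0.0256, edgeR). Trex1, a nuclease that degrades DNA in the cytosol, averaged 50.4 ± 19.2 CPM in blister and 18.9 ± 0.827 CPM in control libraries (SD, n = 3 each; adjusted p = 0.0139, edgeR). Samhd1, which breaks down deoxynucleotides, averaged 56.8 ± 13.5 CPM in blister and 26.7 ± 2.47 CPM in control libraries (SD, n = 3 each; adjusted p = 0.0109, edgeR). Socs1, the main inhibitor of interferon gamma signalling, was at 4.16 ± 1.03 CPM in blister and 6.83 ± 1.29 CPM in control libraries (SD, n = 3 each) and did not pass (adjusted p = 0.0997, edgeR). In the list of nucleic acid sensors and adaptors 1 of 11 tested genes rose, Myd88, the adaptor of Toll-like and interleukin 1 receptors, at 79.6 ± 17.2 CPM in blister and 46.2 ± 3.62 CPM in control libraries (SD, n = 3 each; adjusted p = 0.0214, edgeR).

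Further lists hold genes that act downstream. Of 12 tested genes of MHC class I presentation 1 rose, Erap1, a peptidase that trims peptides, at 31.3 ± 1.52 CPM in blister and 21.7 ± 3.74 CPM in control libraries (SD, n = 3 each; adjusted p = 0.0478, edgeR). Of 12 tested genes known chiefly as interferon gamma responses 0 passed in edgeR, 0 passed in DESeq2, 0 had an unadjusted p under 0.05, and the median log2 fold change was -0.41. The smallest p in that list belonged to H2-Aa, an MHC class II chain, at 15.9 ± 3.59 CPM in blister and 20.3 ± 1.67 CPM in control libraries (SD, n = 3 each; adjusted p = 0.215, edgeR). Among 32 other tested interferon-induced genes 7 rose and 0 fell, or 21.9%, with a median of 0.55. Ifitm3, a membrane protein that blocks viral fusion, was at 139.8, 236 and 121 CPM in blister 1, 2 and 3, against 50.2, 55.4 and 78.4 CPM in control 1, 2 and 3 (adjusted p = 0.0167, edgeR). Lgals9, a galectin, was at 71.8, 88.4 and 75.5 CPM in blister 1, 2 and 3, against 46.0, 54.7 and 40.2 CPM in control 1, 2 and 3 (adjusted p = 0.0175, edgeR). Ifi205 was low, at 1.74, 1.93 and 1.53 CPM in blister 1, 2 and 3, against 0.460, 0.420 and 0.683 CPM in control 1, 2 and 3, and Ly6e, a surface protein with a lipid anchor, was at 66.8, 129 and 81.6 CPM in blister 1, 2 and 3, against 40.7, 39.3 and 45.9 CPM in control 1, 2 and 3 (adjusted p = 0.0186 and 0.0188, edgeR). In addition, Zc3hav1, Ifi204 and Slfn2 rose. Over these lists together, 14 of 88 tested genes rose (15.9%, against 9.74% of all genes) and 0 fell (against 11.6%). DESeq2 called 16 of the 88 higher (18.2%, against 13.9% of all genes) and 0 lower (against 14.4%). With edgeR, 1 of the 88 was lower at an unadjusted p under 0.05, Socs1. The number that rose was 6 without blister 1, 1 without control 1, 3 without control 2 and 9 without control 3. Over all genes 1367 were called higher with every library, and 534, 306, 476 and 541 in these fits, in the same order. The fits without blister 2 and without blister 3 are not listed here, and the range over every such fit is given further below. The calls of Erap1 and Socs3 were each kept in 1 of 6 fits that omit a library, those of Jak1, Stat3 and Myd88 in 2 of 6, and that of Samhd1 in 6 of 6.

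**Figure D4:**
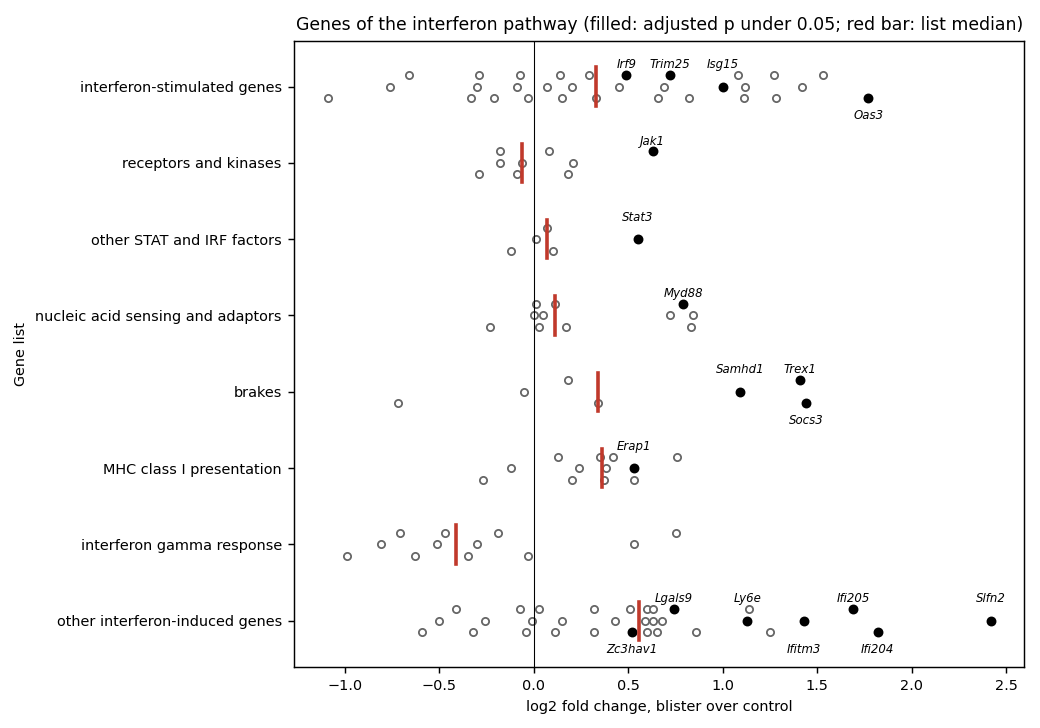
Log2 fold change of blister over control for the 31 tested interferon-stimulated genes and the 88 tested genes of the other pathway lists, where filled points passed an adjusted p of 0.05 and red bars are list medians. Interferon ligands are not drawn, since none was tested.

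Several genes of these lists are also made by myeloid cells, and neutrophil markers moved with the groups. Of 11 such markers 7 were tested and 7 rose, against 9.74% of all genes tested. Several passed the filter on low counts only through the blister libraries, such as Fpr2, with 0, 1 and 3 counts in control 1, 2 and 3. The filter thus favoured markers that were higher in blister. Csf3r, the most abundant, was at 37.2, 86.4 and 33.1 CPM in blister 1, 2 and 3, against 2.99, 1.54 and 3.19 CPM in control 1, 2 and 3. Mpo, Elane, Camp and Ngp, genes of neutrophil precursors, had too few counts to test. Of 11 tested markers of macrophages and Langerhans cells 1 rose, Itgam, at 43.6 ± 14.9 CPM in blister and 11.3 ± 2.79 CPM in control libraries (SD, n = 3 each, adjusted p = 0.00869, edgeR). Of the 11, 7 had negative log2 fold changes, among them the most abundant, Cd74, which did not pass. Their summed level was 193 to 343 CPM in blister and 196 to 271 CPM in control libraries. Of 5 tested markers of T and natural killer cells 0 passed (summed level 39.9 to 55.5 CPM in blister and 59.3 to 75.2 CPM in control libraries). The most abundant of these was Thy1. Plasmacytoid dendritic cells, which make type I interferon, were at the edge of detection: their 4 markers summed to 2.04 to 3.30 CPM in blister and 2.05 to 2.73 CPM in control libraries, and Siglech had at most 10 counts in a library. Ccr9, the most abundant and the only one tested, was at 1.93, 1.93 and 1.61 CPM in blister 1, 2 and 3. It was at 0.844, 1.47 and 0.967 CPM in control 1, 2 and 3, and did not pass (adjusted p = 0.148, edgeR). Several markers of dermal fibroblasts and endothelial cells were lower in blister, though not all. The dermal sums overlapped between the groups, with 986 CPM in blister 2 and 768 CPM in control 1. Of 10 tested dermal markers 5 fell and 1, Fbln1, rose (their median log2 fold change was -3.02). Of 6 tested endothelial markers 2 fell, with a median of -3.06. Over all genes tested 11.6% fell. Pdgfra, a fibroblast receptor, was at 1.01, 6.06 and 4.42 CPM in blister 1, 2 and 3, against 27.3, 19.3 and 69.2 CPM in control 1, 2 and 3. The sum of 7 endothelial markers was 5.51 to 12.4 CPM in blister and 12.4 to 80.5 CPM in control libraries, the highest of them in control 3; Pecam1 was the most abundant, as Col3a1 was among the dermal markers. The part of any of these cells in the changes above was not tested.

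**Figure D5:**
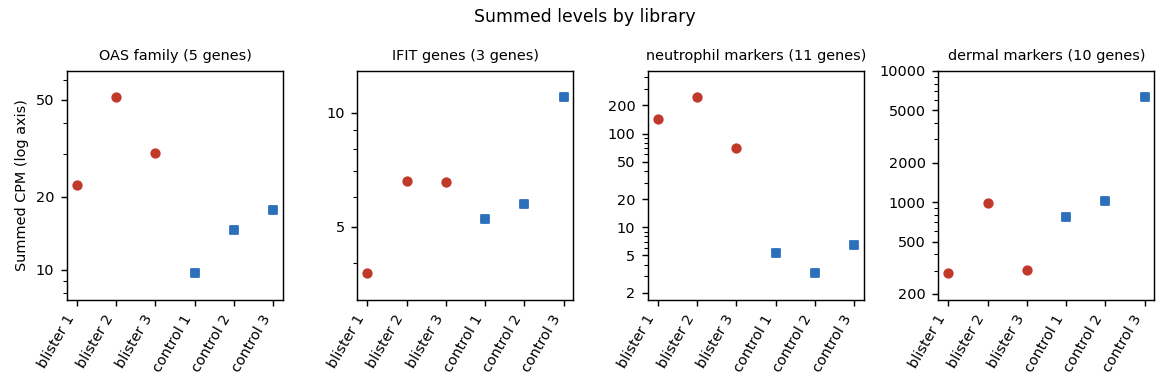
Summed CPM (log axis) of the OAS genes, the IFIT genes, neutrophil markers and dermal fibroblast markers in each library, with blister libraries as circles and control libraries as squares. OAS and neutrophil sums are higher in all 3 blister libraries, while IFIT and dermal sums are highest in control 3.

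Libraries were also compared on each side of the Xist difference. Among the libraries high in Xist (blister 1 and 2 against control 1) and among those low in it (blister 3 against control 2 and 3), the log2 ratio of mean CPM was 0.87 and 0.69 for Trim25, 2.01 and 1.83 for Oas3, 0.69 and 0.25 for Irf9, and 1.33 and 0.56 for Isg15. Of the 31 tested members 18 were higher in blister on both sides, 5 were lower on both, and 8 had opposite signs. The same count was not made over all genes, so these numbers cannot be set against a background share. Xaf1 (1.24 and -1.14) and Gbp3 (0.40 and -1.37) were among those with opposite signs, while Irf1 (1.15 and 0.13) and Ifi35 (0.99 and 0.10) were higher mainly on the side high in Xist. These splits hold 1 library in a group and were not tested. When the log2 level of Xist entered the model as a covariate, Trim25 and Oas3 still passed in edgeR, while Irf9 (adjusted p = 0.0743) and Isg15 (adjusted p = 0.115) did not.

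The number of members that rose was 2 without blister 1 and without blister 2, 7 without blister 3, 1 without control 1, and 2 without control 2 and without control 3. The number of all genes called higher moved as well, from 1367 with every library. It was 534, 1032 and 1998 without blister 1, 2 and 3, and 306, 476 and 541 without control 1, 2 and 3, of 14121 to 14350 tested. Leaving out blister 3 and control 3 together gave 4 members, then Irf1, Irf9, Ifi35 and Trim25, and 1347 of all genes higher.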

How the data were processed

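RNA-seq data of 6 libraries were analysed, 3 of blistered and 3 of control epidermis, grouped by their titles. Per the labels' protocols, libraries were made from poly(A) RNA with a TruSeq kit. HISAT2 2.0.0, featureCounts and the builds NCBIM37 and mm9 are named, per the submitters' processing notes. As for the featureCounts version and the strand setting, they were not given in the sources used here, so reads of overlapping or antisense genes cannot be told apart. The deposited values are raw read counts per gene symbol, and promoter windows come from RefSeq on GRCm38.p6, another build.

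Tests used edgeR 4.0.16 under R 4.3.3: filterByExpr by group (minimum count 10, minimum total 15), TMM scaling, quasi-likelihood F-tests, two-sided, Benjamini-Hochberg adjustment over 14028 genes, threshold 0.05. CPM used the TMM factors over tested genes, and the SE of a log2 fold change is its size divided by the square root of F. The procedure was checked on simulated data. Library totals ran from 7600567 to 15912863, and no pair of libraries agreed within sampling noise. The members and lists were chosen with earlier results of these data known. All members are named, with values in every library for those that passed, those whose groups did not overlap and the most abundant of each role class. In the pathway lists, genes that passed, otherwise that with the smallest p, are given with values or named. Where more than 4 passed, the 4 with the smallest p have values. In the cell type lists, the most abundant tested marker is named and summed levels are given, so not every marker that passed is named. Alternatives were 2 scalings, 2 filters, the replicate number as a block, DESeq2 1.42.0, Xist as a covariate and libraries left out. Of the pathway lists, 1 gene is not reported here and is left out of the list counts.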

Additional observations from a re-analysis of the deposited data

How the results depend on the processing

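The number of members that rose was 4, and it was 2 with scaling by library size alone, 9 in DESeq2, 2 with Xist as a covariate, and 1 to 7 when 1 library was left out. Over all genes the number called higher was 1367. It was 544 with library size alone, 1956 in DESeq2, 694 with Xist as a covariate, and 306 to 1998 when 1 library was left out. Scaling by library size alone moved the median of all genes to -0.25 and the share of higher calls to 16.1%, against 45.7% with TMM, and with it 1 member, Tap1, and 4 other pathway genes fell, against 0 and 0. The members' median log2 fold change, 0.33, was 0.19 to 0.51 with 1 library left out, 0.09 with library size alone and 0.65 without blister 3 and control 3. In all, 2993 genes were called, against 1731 with Xist as a covariate and 785 to 4061 with 1 library left out, and the pathway genes that rose numbered 14, against 9 with library size alone and 1 to 20 with 1 library left out.

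Signs turned only in members that did not pass. With library size alone Mx2 was at -0.18, Gbp2 at -0.10, Xaf1 at -0.11 and Eif2ak2 at -0.06. With Xist as a covariate Ddx58 was at 0.07. Without blister 3 and control 3, Stat2 was at 0.07, Ddx58 at 0.15, Gbp3 at 0.06 and Parp14 at 0.19. With 1 library left out, Mx2 ran from -0.38 to 0.31, Gbp2 from -0.09 to 0.38, Xaf1 from -0.11 to 0.51, Stat2 from -0.16 to 0.07, Ddx58 from -0.22 to 0.16 and Parp14 from -0.34 to 0.13. The causes were not tested.

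With the replicate number as a block 5 members rose, Oas1a being added (edgeR adjusted p = 0.039), and 2876 genes were called. Libraries of the same number correlated at 0.211, -0.259 and 0.0392 in their deviations, so the numbers were not taken as pairs. With the filter of 5 CPM in 3 libraries 14 members were tested, against 31, and Oas3 was among those left out. Low counts limit what can be seen in low members such as Mx2 and Gbp3.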
